A study of Mus musculus with 4 samples.

Results

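The mouse cytochrome P450 genes of the expression table were examined, taken by symbol (Cyp, a family number, a subfamily letter and a gene number), a rule that found 102 genes among 22458. Cytochrome P450 enzymes are heme proteins, most of them in the membrane of the endoplasmic reticulum, that insert 1 atom of oxygen into a substrate with electrons supplied mainly by P450 reductase. Families 1 to 3 oxidise drugs, dietary chemicals and many lipids, family 4 and the subfamilies 2J and 2U act on fatty acids and on signalling lipids derived from arachidonic acid, and other families make or break down steroids, bile acids and vitamins. In the small intestine P450 enzymes of the absorptive cells form a first barrier to ingested compounds.

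The libraries came from jejunal epithelium of adult mice on a 129xC57/Bl6xSvJ mixed background. There were 2 Cre- control libraries and 2 libraries labelled Hnf4a;Cdx2 double-knockout, called biological replicates in the titles, and the comparison asked how the epithelium differs when both transcription factors are targeted. HNF4A and CDX2 are DNA-binding factors of intestinal cells. All mice, controls included, had 1 mg of tamoxifen for 5 days to activate Cre. The epithelium was released with 5 mM EDTA in 45 minutes at 4 °C. The sources used here do not name the Cre driver, the exact ages or the structure of the alleles, and each value is from epithelium of mixed cell types. Levels are FPKM, in which fragments are divided by transcript length and by library depth, so that genes can be compared per length.

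Hnf4a, the gene targeted together with Cdx2, stood at 156 and 202 FPKM in the controls and at 31.6 and 48.2 FPKM in the other libraries. Cdx2 went against the labels, with 70.9 and 65.2 FPKM in controls and 160 and 161 FPKM in the libraries labelled double knockout. Whole-gene FPKM may include transcripts of a recombined allele and does not check the deletion, so the groups are named here by their labels. The step between low values placed the libraries at about 19300000 and 13200000 reads for the controls and 12600000 and 9590000 for the libraries labelled double knockout. Enterocyte markers were abundant in sum in all 4 libraries (11 genes, 34040 to 50160 FPKM). One of them, Lct, was at 2.70 and 0.742 FPKM in the libraries labelled double knockout, against 300 and 283 FPKM in controls. Markers of gastric surface cells summed to 2.46 and 1.68 FPKM in controls and to 3576 and 1704 FPKM in the libraries labelled double knockout, with Muc5ac under 0.01 FPKM in every library and Tff1 listed at 0. In such bulk tissue, fewer cells of a type and less RNA per cell cannot be told apart.

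A short stretch of DNA before the start of neighbouring Cyp2c genes is shown first, because these neighbours differed in opposite directions in the libraries labelled double knockout. The letters CAAAGTCCA are a core recognised by HNF4A. They were searched on both strands of the RefSeq promoter windows (GRCm38.p6, 250 bases before to 50 after a start), which exist for 75 of the 102 genes in 85 windows. The capitals mark the string in Cyp2c65 and the same place in Cyp2c66. The stretches lie upstream of the genes on the plus strand, at chr19:39060865-39060924 for Cyp2c65 and at chr19:39113769-39113828 for Cyp2c66.
Cyp2c65: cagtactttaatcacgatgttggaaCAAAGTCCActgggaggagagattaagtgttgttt
Cyp2c66: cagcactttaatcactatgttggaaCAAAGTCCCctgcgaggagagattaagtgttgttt
Counted from the 5′ end of the 60 bases printed, with the Cyp2c65 base first, the pair differed at T4C, G16T, A34C and G38C, and A34C falls on the last letter of the string. The Cyp2c66 window holds no match. Cyp2c65, whose transcript was higher in the libraries labelled double knockout, holds one that begins 116 bases before its start. The pair was chosen for its opposite differences, and whether the string is linked to them was not tested.

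The string occurred in 11 of the 85 P450 windows (12.9%) and in 156 of all 32851 windows (0.475%). The 11 were 6 Cyp2c genes (Cyp2c40, Cyp2c65, Cyp2c67, Cyp2c68, Cyp2c69 and Cyp2c70), 4 Cyp3a genes (Cyp3a11, Cyp3a16, Cyp3a41a and Cyp3a41b) and Cyp8b1, a bile acid 12-alpha-hydroxylase. Members of a subfamily share ancestry and sequence, so these are not 11 separate observations. All 11 matches read in the direction of the gene and began 45 to 125 bases before the start. Only Cyp2c65, Cyp2c68 and Cyp3a11 had enough transcript here to be tested. Cyp2c68 and Cyp3a11 are shown to compare the string's surroundings, again upstream of the gene, on the minus strand at chr19:39741144-39741203 for Cyp2c68 and at chr5:145879929-145879988 for Cyp3a11.
Cyp2c68: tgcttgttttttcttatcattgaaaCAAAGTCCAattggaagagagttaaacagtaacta
Cyp3a11: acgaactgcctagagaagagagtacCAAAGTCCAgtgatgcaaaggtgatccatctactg
Of the 10 genes called lower below, 9 had windows, 11 in all, and none held the string. It was in 1 of 3 windows of genes called higher (Cyp2c65) and in 2 of 17 of tested genes not called, Cyp2c68 and Cyp3a11, whose log2 fold changes were -0.96 and -0.89. The shorter AAAGTCCA, which lies inside it, was in 12.9% of P450 windows and 1.25% of all windows. The CDX strings TTTATG and TTTATT were in 14.1% and 18.8% of P450 windows against 11.9% and 19.6% of all, and GCGTG, the core of the element bound by the aryl hydrocarbon receptor, in 18.8% against 32.4%. A match is a description of the letters in these windows and not a site.

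Of the 102 genes, 32 reached a mean of 1 FPKM over the 4 libraries and were tested with limma on log2(FPKM + 1) among 10883 genes. The other 70 stayed under that level, and 21 of these were listed at 0 in every library. At an adjusted p under 0.05, 15 of the 32 were called (46.9%), with 9.57% of all tested genes called. There were 10 called lower in the libraries labelled double knockout (31.2%, with 5.8% of all genes) and 5 called higher (15.6%, with 3.77% of all genes). Of the 32 genes, 5 had a control mean under 1 FPKM and 3 a mean under 1 FPKM in the other group, so these passed the filter through 1 group only; among the called genes they were Cyp2d34, Cyp2d10 and Cyp2d37-ps (higher) and Cyp2u1 and Cyp2j9 (lower). The counts are therefore a description. The median log2 fold change of the 32 genes was -0.64, and that of all tested genes was 0.02. The groups did not overlap for 26 of the 32, 16 lower and 10 higher, which with 2 libraries a group happened for 60.7% of all tested genes. The smallest p of an exact permutation test with 2 libraries a group is 0.333, so single genes were judged by the fit across all genes.

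Together the 102 genes summed to 4960 and 4330 FPKM in the controls and to 3987 and 2499 FPKM in the libraries labelled double knockout. This was 0.768% and 0.650% of a control library and 0.579% and 0.388% of the other libraries. A few genes carried most of it, and the 3 most abundant held 54.7% and 52.6% of the sum in controls and 63.1% and 61% in the libraries labelled double knockout. Cyp3a genes summed to 2291 and 1609 FPKM in controls against 1884 and 1028 FPKM, groups that overlap. Cyp4f genes summed to 1015 and 1094 FPKM in controls against 748 and 421 FPKM, and Cyp2c genes to 468 and 534 FPKM against 710 and 645 FPKM, so these subfamilies lay on opposite sides of their controls without overlap. The P450 message of the libraries labelled double knockout was therefore smaller in sum and held a greater part of Cyp2c. That greater part was mostly Cyp2c65, at 222 and 273 FPKM in controls and 601 and 543 FPKM in the others. Cyp2c29 also lay above its controls, while Cyp2c55, Cyp2c66 and Cyp2c68 lay below theirs. Of the 75-base stretches of the Cyp2c65 transcript, 50.8% matched Cyp2c66 with at most 2 mismatches, so its level is uncertain.

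**Figure D1:**
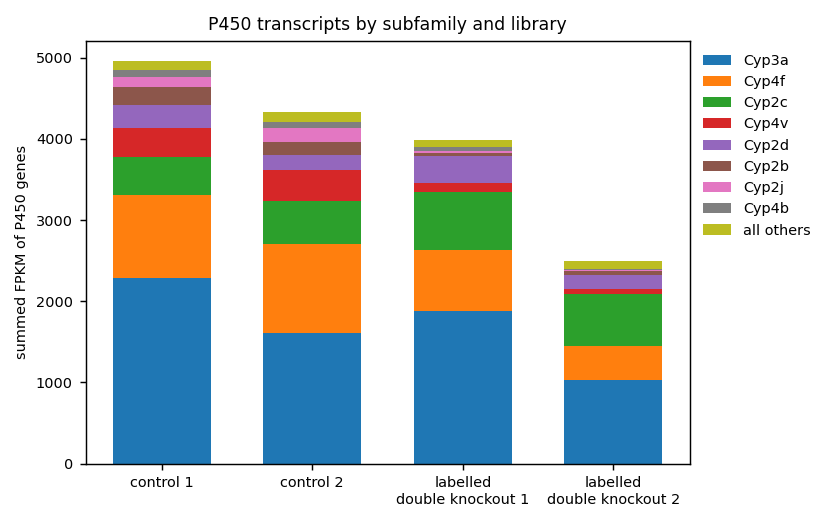
Summed FPKM of P450 genes (y axis) in each of the 4 libraries (x axis), stacked by subfamily from 0. The sum is 4960 and 4330 in controls and 3987 and 2499 in the libraries labelled double knockout, and the Cyp4f, Cyp4v, Cyp2b and Cyp2j layers are thinner in the latter.

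**Figure D2:**
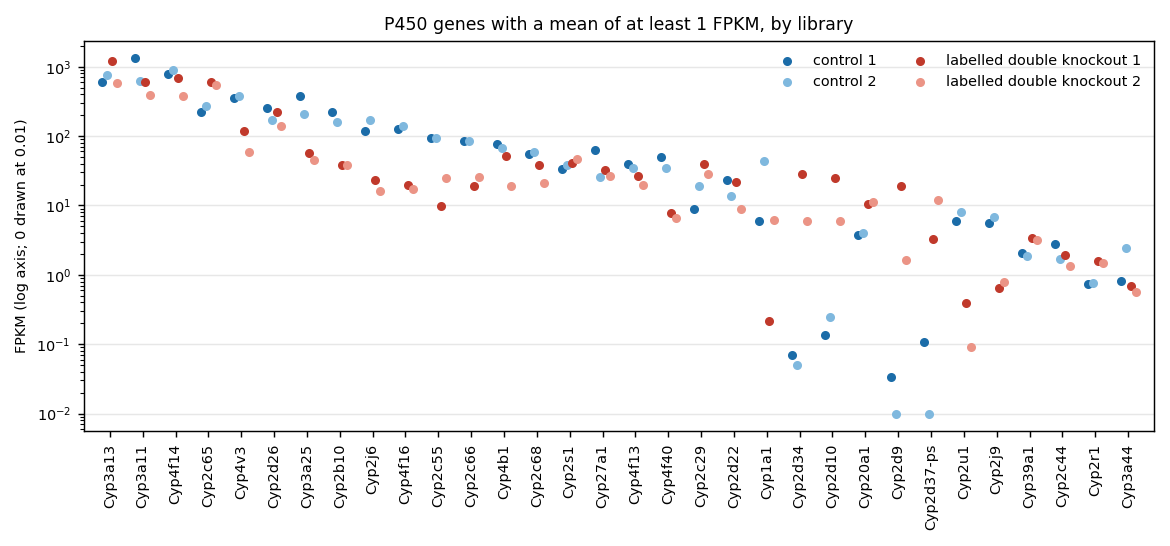
FPKM (log axis, 0 drawn at 0.01) of the 32 tested P450 genes in each library, ordered by mean level, with 1 point per library. Cyp2j6, Cyp4f16, Cyp2u1 and Cyp2j9 show the libraries labelled double knockout far under the controls, and Cyp2d34, Cyp2d10 and Cyp2d37-ps show them far above.

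Among the subfamilies listed for fatty acids and eicosanoids, genes were called lower and none higher. All 9 tested genes of subfamilies 2j, 2u, 4b, 4f and 4v had a log2 fold change below 0, with a median of -2.13 (0.02 for all tested genes). Of the 9, 6 were called lower (5.8% of all tested genes were), while Cyp4b1, Cyp4f13 and Cyp4f14 were not called. Cyp2u1 and Cyp2j9, among those called, passed the filter only through the controls and could differ in that direction alone. The counts and the median include both and are a description. Some Cyp2c enzymes also act on arachidonic acid and are described with their own subfamily. The genes listed for fatty acids and eicosanoids made up 31.9% and 39.9% of the P450 sum in controls and 23.6% and 20.6% in the libraries labelled double knockout. The enterocyte marker sum of the same libraries overlapped between the groups, at 43880 and 47150 FPKM in controls and 50160 and 34040 FPKM in the others. Most of it was Fabp1, Fabp2, Apoa1 and Apoa4, so the sum says little of the other markers. Of its 11 genes 4 were called lower (5.8% of all tested genes were). These were Vil1 (2.00-fold), Epcam (2.29-fold), Sis (24.35-fold) and Lct (169-fold). Alpi and Cdh1 lay above their controls and were not called. Enteroendocrine markers summed to 706 and 584 FPKM in controls and 170 and 127 FPKM in the others. Of the 7 tested, 5 were called lower (5.8% of all tested genes were). The part of either list in the P450 differences was not tested.

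Cyp4f16, a member of the family that hydroxylates fatty acids and leukotrienes at or near the chain's end, had 128 and 138 FPKM in controls and 19.6 and 17.2 FPKM in the libraries labelled double knockout. It fell 7.21-fold, by 2.79 ± 0.16 on the log2 scale (SE, adjusted p = 0.00261), the lowest adjusted p among the P450 genes. Its neighbour Cyp4f40 had 49.2 and 34.8 FPKM in controls and 7.85 and 6.53 FPKM in the others, a difference of -2.38 ± 0.22 (adjusted p = 0.00809). With at most 2 mismatches, 41.0% of the 75-base stretches of the Cyp4f16 transcript and 3.0% of those of Cyp4f40 matched another P450 gene. Both fell well outside the spread of their controls, and both kept an adjusted p under 0.05 whichever library was left out.

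The other 2 tested Cyp4f genes of that locus were not called. Cyp4f14, the third most abundant P450 gene by mean level, had 796 and 884 FPKM in controls and 692 and 376 FPKM in the libraries labelled double knockout (log2 fold change -0.72 ± 0.34, adjusted p = 0.242). Cyp4f13 had 39.8 and 34.2 FPKM in controls and 26.4 and 19.8 FPKM in the others (adjusted p = 0.108). The groups of both genes were apart, as were those of 60.7% of all tested genes in either direction. The ratio of Cyp4f14 to Cyp4f16 was 6.22 and 6.42 in controls and 35.2 and 21.9 in the libraries labelled double knockout.

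Cyp4v3, the mouse counterpart of the fatty acid hydroxylase CYP4V2, had 357 and 379 FPKM in controls and 118 and 58.1 FPKM in the libraries labelled double knockout. Its difference was -2.13 ± 0.36 (adjusted p = 0.0307), and the call was lost without either control library (adjusted p = 0.115 and 0.143) and without the filter on low genes (0.0641). Cyp4b1, which acts on fatty acids and on some plant toxins, had 77.1 and 67.3 FPKM in controls and 50.9 and 18.8 FPKM in the others, and was not called (-1.19 ± 0.47, adjusted p = 0.181; 0.0248 without the first library labelled double knockout). For Cyp4v3 and Cyp4b1 alike the second library labelled double knockout lay well under the first.

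Cyp2j6, an epoxygenase of polyunsaturated fatty acids, had 120 and 172 FPKM in controls and 22.9 and 16.2 FPKM in the libraries labelled double knockout. The change was -2.83 ± 0.26 (7.46-fold lower, adjusted p = 0.00809) and stayed called except without the second control (adjusted p = 0.0540). Cyp2j9, beside it on chromosome 4, had 5.64 and 6.71 FPKM in controls and 0.650 and 0.793 FPKM in the others (-2.06 ± 0.19, adjusted p = 0.00809), and the call was lost without either control (0.0544 and 0.0623). Cyp2u1, a hydroxylase of arachidonic acid, went from 6.05 and 8.18 FPKM to 0.390 and 0.0926 FPKM, which the step size translates to about 501 and 465 reads against 21 and 4. Its difference was -2.71 ± 0.24 (adjusted p = 0.00794), lost without either control at 0.0508 and 0.0588. All 3 genes had every library labelled double knockout under every control. Groups that did not overlap, in either direction, were seen for 60.7% of all tested genes. Cyp2j9 and Cyp2u1 passed the filter only through the controls, so they could differ in that direction alone.

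**Figure D3:**
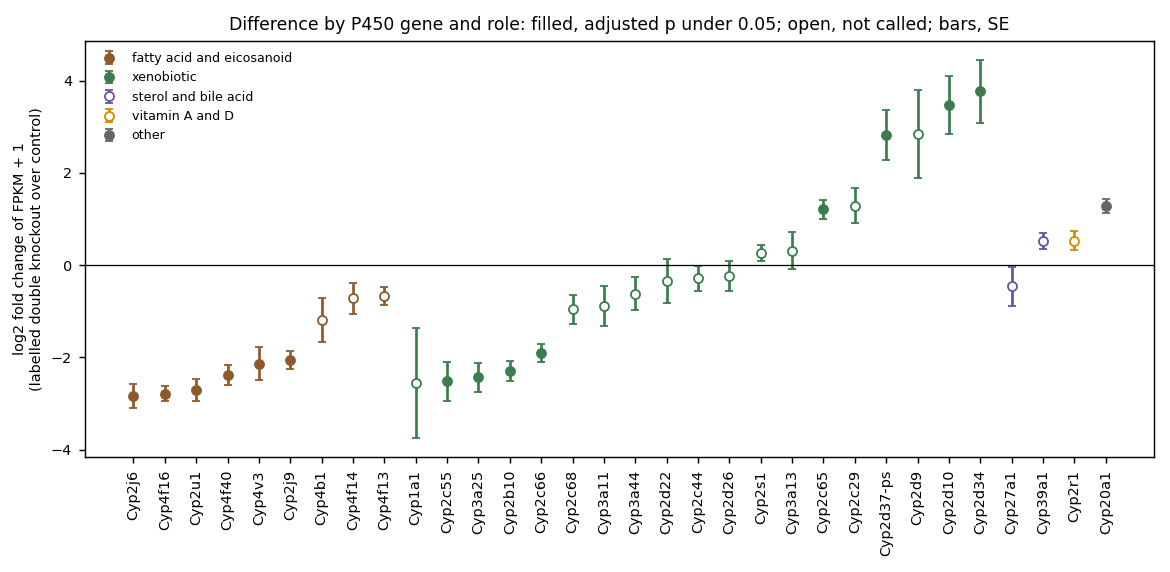
Log2 fold change of FPKM + 1 (y axis, labelled double knockout over control, bars SE) of the 32 tested P450 genes, coloured by role and ordered within it. Filled points have an adjusted p under 0.05; the 9 fatty acid and eicosanoid genes all lie below 0, and the 19 xenobiotic genes run from -2.56 to 3.77.

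Genes of drug and diet metabolism were called in both directions. Of 19 tested, 4 were called lower (5.8% of all tested genes were), 4 higher (3.77% of all were) and 11 were not called. The median log2 fold change was -0.29 (0.02 for all tested genes). Of those called higher, Cyp2d34, Cyp2d10 and Cyp2d37-ps passed the filter only through the libraries labelled double knockout and could differ in that direction alone. The share of the P450 sum held by genes of drug and diet metabolism was 66.7% and 59.3% in controls and 75.2% and 77.7% in the libraries labelled double knockout.

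The Cyp3a enzymes oxidise a wide range of drugs and steroids, and 4 of their 9 genes were tested. Of these, 1 was called lower (5.8% of all tested genes were) and none higher (3.77% of all were). Cyp3a11 had 1315 and 626 FPKM in controls and 607 and 394 FPKM in the libraries labelled double knockout, with the lower control close to the higher of the others (-0.89 ± 0.43, adjusted p = 0.254). Cyp3a13, the most abundant by mean, had 600 and 769 FPKM in controls and 1217 and 587 FPKM in the others, groups that overlap (0.32 ± 0.40, adjusted p = 0.650); without the first library labelled double knockout its sign turned, to -0.21. Cyp3a25 had 374 and 211 FPKM in controls and 57.8 and 45.7 FPKM in the libraries labelled double knockout. It fell 5.65-fold (-2.43 ± 0.32, adjusted p = 0.0165), with the call lost without the first control (0.0588) or the second library labelled double knockout (0.0659). The ratio of Cyp3a11 to Cyp3a25, its neighbour, was 3.52 and 2.96 in controls and 10.5 and 8.63 in the others.

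Cyp3a44 stayed near the filter, at 0.810 and 2.40 FPKM in controls and 0.686 and 0.561 FPKM in the others, and was not called (adjusted p = 0.320). Close copies limit these values. Of the 75-base windows of the annotated Cyp3a25 transcript, 62.8% matched another P450 gene with at most 2 mismatches, mostly Cyp3a59. The share was 67.7% for Cyp3a44 and 39.5% for Cyp3a11, while Cyp3a13 shared none.

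Cyp2b10, the classic target of the receptor CAR, had 226 and 161 FPKM in controls and 38.2 and 38.3 FPKM in the libraries labelled double knockout. It fell 5.06-fold (-2.29 ± 0.21, adjusted p = 0.00809) and stayed called whichever library was left out. Cyp2b10 was the only tested member of 5 Cyp2b genes, and 22.3% of its windows matched another P450 gene, mostly Cyp2b13.

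Neighbouring Cyp2c genes of chromosome 19 were called in opposite directions. Cyp2c55 (mm9 19, 39081508 to 39117177), which makes hydroxylated products of arachidonic acid, had 93.8 and 94.9 FPKM in controls and 9.67 and 24.8 FPKM in the libraries labelled double knockout, a change of -2.52 ± 0.43 (adjusted p = 0.0314; 0.121 and 0.144 without either control, 0.0674 without the filter). Cyp2c65, which begins 18.3 kb further on (mm9 19, 39135495 to 39168438), had 222 and 273 FPKM in controls and 601 and 543 FPKM in the others, 2.31-fold higher (1.21 ± 0.20, adjusted p = 0.0294). Cyp2c66, 19.95 kb beyond it (mm9 19, 39188387 to 39261246), had 84.7 and 85.8 FPKM in controls and 18.9 and 25.4 FPKM in the others, 3.85-fold lower (-1.91 ± 0.19, adjusted p = 0.00926; 0.0623 and 0.0667 without either control). Thus the middle gene lay above its controls in both libraries labelled double knockout, and both its neighbours lay below theirs.

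The ratio of Cyp2c65 to Cyp2c66 in a library was 2.63 and 3.18 in controls and 31.9 and 21.3 in the libraries labelled double knockout. The call for Cyp2c65 was the less firm, with an adjusted p of 0.0868 to 0.104 when any 1 library was left out and 0.0553 without the filter. Of the windows of Cyp2c65, 50.8% matched Cyp2c66 with at most 2 mismatches and 11.4% matched a P450 gene exactly. Of those of Cyp2c66, 59.8% matched Cyp2c65 and 13.6% matched a P450 gene exactly. A part of the reads could be assigned to either, so both levels and their ratio are uncertain. These are the genes whose upstream stretches, printed above, differ in the last letter of the HNF4 string and at other bases. Whether that letter is linked to their levels was not tested.

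Further along the locus Cyp2c29, an epoxygenase, had 8.85 and 19.3 FPKM in controls and 39.3 and 28.7 FPKM in the libraries labelled double knockout, apart but not called (1.29 ± 0.39, adjusted p = 0.106). Cyp2c68 had 55.0 and 58.6 FPKM in controls and 38.8 and 21.2 FPKM in the others (adjusted p = 0.120; 0.0372 without the first library labelled double knockout), and 86.1% of its windows matched another P450 gene, the highest share among the tested genes. Cyp2c44 had 2.79 and 1.67 FPKM against 1.93 and 1.32 FPKM, groups that overlap. Of the 16 Cyp2c genes, 10 stayed under the filter.

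**Figure D4:**
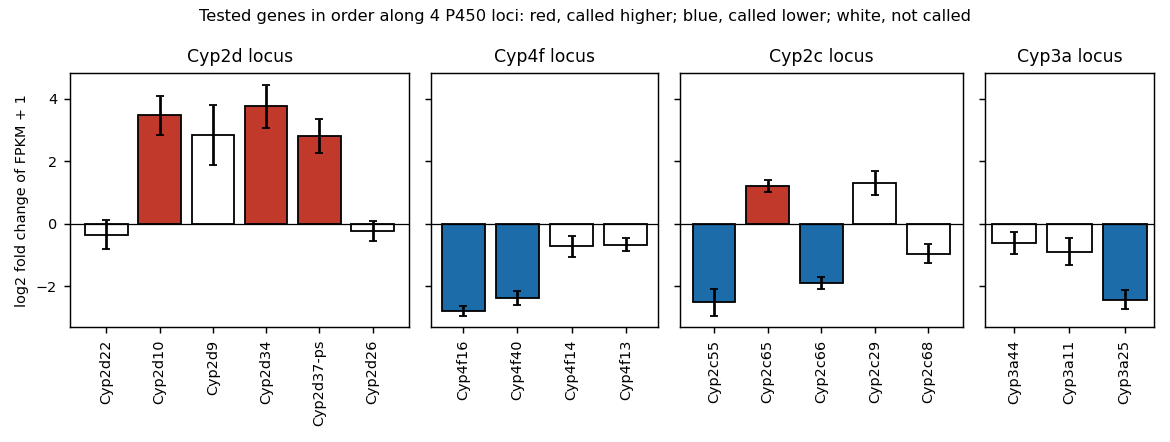
Log2 fold change of FPKM + 1 (y axis, bars SE) of the tested genes in their order along the Cyp2d, Cyp4f, Cyp2c and Cyp3a loci (x axis, not to scale; colours give the calls). Cyp2c65 stands at 1.21 between Cyp2c55 at -2.52 and Cyp2c66 at -1.91, and the 4 inner tested Cyp2d genes stand at 2.82 to 3.77 between outer genes near 0.

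The Cyp2d genes include drug-metabolising P450 enzymes of mouse liver. Of 10 genes in 424 kb of chromosome 15, 6 were tested and 3 were called, all higher (3.77% of all tested genes were). Those 3 and Cyp2d9 had control means under 0.2 FPKM and passed the filter only through the libraries where they were high, so they could differ in that direction alone. Cyp2d34 was at 0.0693 and 0.0506 FPKM in controls and at 28.9 and 5.98 FPKM in the libraries labelled double knockout, about 2 and 1 reads against 575 and 91 (3.77 ± 0.69, adjusted p = 0.0370). Cyp2d10 was at 0.136 and 0.248 FPKM against 24.7 and 5.88 FPKM, about 4 and 5 reads against 488 and 89 (3.48 ± 0.63, adjusted p = 0.0361). The pseudogene Cyp2d37-ps was at 0.106 FPKM in 1 control and listed at 0 in the other, against 3.25 and 11.9 FPKM (2.82 ± 0.54, adjusted p = 0.0426). No fold is given for these genes, since a handful of control reads cannot fix one. Their calls were lost without either control library, with adjusted p between 0.131 and 0.172, with a robust variance model, with 0.0538 to 0.0698, and without the filter, with 0.0776 to 0.0836.

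Cyp2d9 behaved unevenly, at 0.0339 FPKM in 1 control and listed at 0 in the other, against 19.3 and 1.64 FPKM in the libraries labelled double knockout, and was not called (2.85 ± 0.95, adjusted p = 0.131; 0.0102 without the second library labelled double knockout). Cyp2d34, Cyp2d10 and Cyp2d9 were all several times higher in the first library labelled double knockout than in the second, and Cyp2d37-ps the reverse. The genes at the ends of the locus did not share this. Cyp2d22 had 23.7 and 13.9 FPKM in controls against 22.0 and 8.83 FPKM, and Cyp2d26, the most abundant of the subfamily, had 258 and 168 FPKM against 224 and 142 FPKM, with overlapping groups in both and adjusted p = 0.672 and 0.693.

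Of the windows of Cyp2d9 and Cyp2d10, 45.0% and 53.4% matched another P450 gene, most often Cyp2d11, and 23.1% of those of Cyp2d34 did. A stretch of DNA before the start of Cyp2d9 and of Cyp2d10 is shown for description. It was chosen as the most alike ungapped stretch of 61 bases before the starts, so its likeness follows from the choice. Whether it is linked to the levels of these transcripts was not tested. The stretches are upstream of the genes at chr15:82407199-82407259 on the minus strand for Cyp2d10 and at chr15:82452315-82452375 on the plus strand for Cyp2d9 (GRCm38.p6), and the capitals mark the bases that differ.
Cyp2d10: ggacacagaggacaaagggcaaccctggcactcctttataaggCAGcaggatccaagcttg
Cyp2d9: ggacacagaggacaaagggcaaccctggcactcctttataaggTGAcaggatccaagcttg
Counted from the 5′ end with the Cyp2d10 base first, the 61 bases differ at C44T, A45G and G46A.

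Markers of other organs were read beside the Cyp2d genes. Among 10 hepatocyte genes Alb was at 0.561 and 0.312 FPKM in controls and 0.123 and 0.0536 FPKM in the libraries labelled double knockout, Serpina1a was listed at 0 in all 4, and 6 genes were under 1 FPKM everywhere. The list's sum was 6.23 and 6.12 FPKM in controls and 148 and 244 FPKM in the others, almost all of it Ttr, at 143 and 242 FPKM in the latter. Fga and Fgb were listed at 0 in both controls and stood at 1.39 and 0.202 FPKM and at 0.936 and 0.144 FPKM in the libraries labelled double knockout, and Ahsg, also listed at 0 in controls, at 0.185 and 0.0804 FPKM. Of 9 pancreatic acinar genes Prss1, Amy2a5 and Cpb1 were listed at 0 in all libraries, while Ctrb1 went from 0.217 and 0.421 FPKM to 50.1 and 14.3 FPKM. The gastric surface sum, at 3576 and 1704 FPKM, was like Cyp2d34 and Cyp2d10 higher in the first library labelled double knockout. Gastric chief and parietal genes summed to 1.19 and 0.609 FPKM in controls and 46.6 and 30.3 FPKM in the others. The 3 tested, Pgc, Gif and Atp4a, were called higher (3.77% of all tested genes were). They passed the filter only through the libraries labelled double knockout, so they could differ in that direction alone. Pga5, Lipf and Atp4b of that list were under the filter. The part of these lists in the Cyp2d difference was not tested.

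Cyp1a1, the best known target of the aryl hydrocarbon receptor and induced by plant indoles, varied more within groups than most. It had 5.89 and 43.7 FPKM in controls and 0.218 and 6.23 FPKM in the libraries labelled double knockout, so the higher of the latter exceeded the lower control. The difference was -2.56 ± 1.19 (adjusted p = 0.237) and not called. The myeloid marker Lyz2 was likewise highest in the second control and lowest in the first library labelled double knockout, at 8.60 and 34.8 FPKM in controls and 1.86 and 2.66 FPKM in the others. The myeloid list summed to 14.1 and 44.3 FPKM against 4.33 and 6.68 FPKM, and most of it in controls was Lyz2. Emr1, Itgax, C1qa and C1qb of that list shared this order, and Itgam, Csf1r and Cd68 did not. The order was not particular to the list. Ang4, a Paneth marker, had 894 and 3724 FPKM in controls and 44.3 and 565 FPKM in the others. The other genes of the Paneth list, Lyz1, Defa24, Defa17, Mmp7, Itln1 and Pla2g2a, did not share this order. Whether these values are linked was not tested. Cyp2s1, another target of that receptor, had 33.4 and 38.5 FPKM in controls and 40.7 and 46.2 FPKM in the others (adjusted p = 0.354). The receptor's own gene Ahr had 4.86 and 5.36 FPKM against 6.60 and 6.79 FPKM (adjusted p = 0.242).

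Sterol and vitamin enzymes were few. Cyp27a1, a mitochondrial sterol 27-hydroxylase, had 62.2 and 26.1 FPKM in controls and 32.4 and 26.2 FPKM in the libraries labelled double knockout, groups that overlap (adjusted p = 0.531). Cyp39a1, an oxysterol hydroxylase of bile acid synthesis, had 2.08 and 1.87 FPKM against 3.405 and 3.155 FPKM (adjusted p = 0.135). Cyp2r1, a vitamin D 25-hydroxylase, had 0.749 and 0.754 FPKM against 1.59 and 1.48 FPKM (adjusted p = 0.163). Both lay above their controls without passing the test. Cyp7a1 and Cyp8b1, enzymes of hepatic bile acid synthesis, and Cyp24a1, which inactivates vitamin D and is a target of its receptor, were listed at 0 in all libraries. None of the 6 steroid hormone genes was tested.

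Cyp20a1, an orphan enzyme without a settled substrate, was higher, with 3.79 and 3.98 FPKM in controls and 10.6 and 11.1 FPKM in the libraries labelled double knockout. The rise was 2.80-fold (1.28 ± 0.15, adjusted p = 0.0136), and the call was lost with any 1 library left out, at adjusted p = 0.0587 to 0.0780.

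Among the 70 genes under the filter, 10 reached 0.5 FPKM in some library. Cyp4a10, a fatty acid hydroxylase induced through PPARA, had 1.17 and 0.609 FPKM in controls and 0.240 and 0.157 FPKM in the libraries labelled double knockout. Cyp3a59 had 0.739 and 0.480 FPKM in controls and was listed at 0 and 0.0550 FPKM in the others. Cyp17a1, Cyp2e1, Cyp4f15, Cyp4f17 and Cyp4f37 had their highest value in a control, from 0.545 to 0.999 FPKM. Cyp2c70, Cyp3a41a and Cyp4f39 had theirs in a library labelled double knockout, from 0.609 to 0.721 FPKM. At these levels the values rest on few reads, and they are given as levels only.

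The authors' deposited table of their own comparison gave a status of OK to 33 of the 102 genes and called 17 of them, 13 lower and 4 higher, with 13.2% of all genes of that status called. It used the same libraries and is no separate evidence. The limma calls included 13 of the 17. The 4 genes called in the authors' deposited table alone were Cyp1a1 (q = 0.000868), Cyp2c29 (q = 0.00229), Cyp4b1 (q = 0.0195) and Cyp2c68 (q = 0.0434). Cyp2d34 and Cyp2d37-ps, called higher by limma, were not called in the authors' deposited table (q = 0.363 and 0.534).

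P450 enzymes depend on partners for electrons, and these were partly lower. Por, the reductase that feeds nearly all microsomal P450 enzymes, had 180 and 166 FPKM in controls and 78.6 and 67.8 FPKM in the libraries labelled double knockout. It fell 2.37-fold (-1.23 ± 0.17, adjusted p = 0.0177). Cyb5a, cytochrome b5, a second electron donor, had 922 and 941 FPKM against 445 and 484 FPKM (2.01-fold lower, adjusted p = 0.0407), and Pgrmc1, a heme-binding partner of several P450 enzymes, had 289 and 296 FPKM against 163 and 135 FPKM (-0.97 ± 0.18, adjusted p = 0.0391). These were 3 of 9 tested electron transfer genes, with none higher (5.8% of all genes were called lower), and Cyb5b, at 246 and 273 FPKM against 327 and 234 FPKM, was not called. For all 3 the groups were apart by more than their own spread (60.7% of all tested genes had groups that did not overlap). With a library left out, Cyb5a (0.110 to 0.143) and Pgrmc1 (0.0696 to 0.145) lost the call each time, and Por kept it only without the first library labelled double knockout (0.0726 to 0.0880 in the other fits).

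Genes of heme synthesis and breakdown gave no call, at 0 of 13 tested with a median log2 fold change of -0.04, where 9.57% of all genes were called. Alas1, the first and limiting step of heme synthesis, had 57.0 and 52.6 FPKM in controls and 52.1 and 39.8 FPKM in the others (adjusted p = 0.426). Hmox1, which degrades heme, had 0.466 and 2.51 FPKM against 3.19 and 2.08 FPKM (adjusted p = 0.402). The Alas1 groups did not overlap and those of Hmox1 did.

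Of 16 tested receptors and partners that sense P450 inducers or substrates, 2 were called, both lower, with 9.57% of all genes called. Vdr, the vitamin D receptor, had 100 and 80.4 FPKM in controls and 16.1 and 20.4 FPKM in the libraries labelled double knockout, 4.95-fold lower (-2.25 ± 0.20, adjusted p = 0.00806). Nr1i3, the receptor CAR, had 35.2 and 29.2 FPKM against 13.3 and 8.89 FPKM (-1.47 ± 0.24, adjusted p = 0.0270). Nr1i2, the receptor PXR known for inducing Cyp3a11, had 75.1 and 66.2 FPKM against 77.1 and 54.9 FPKM, groups that overlap (adjusted p = 0.770). The call for Vdr was lost without the first control (0.0555), and that for Nr1i3 in all fits with a library left out (0.0780 to 0.110) but that without the first library labelled double knockout.

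On the list of other genes reported to respond to the aryl hydrocarbon receptor, 2 of 5 tested were called, both higher (3.77% of all genes were). Tiparp lay below its controls, at 5.58 and 10.1 FPKM against 10.6 and 13.7 FPKM, and was not called. Gsta1, a glutathione transferase whose close copies may share its reads, had 57.4 and 71.7 FPKM in controls and 475 and 533 FPKM in the libraries labelled double knockout (2.95 ± 0.19, adjusted p = 0.00369), and Lpcat4, a lysophospholipid acyltransferase, had 4.74 and 6.04 FPKM against 17.8 and 22.9 FPKM (1.74 ± 0.20, adjusted p = 0.0130). Among 8 tested epoxide hydrolases and eicosanoid enzymes 2 were called, both lower (5.8% of all genes were). Ltc4s, the leukotriene C4 synthase, had 19.1 and 21.1 FPKM in controls and 7.13 and 6.73 FPKM in the others (-1.41 ± 0.15, adjusted p = 0.0109). Lta4h, which makes leukotriene B4, a substrate of Cyp4f enzymes, had 141 and 147 FPKM against 69.7 and 86.5 FPKM (-0.88 ± 0.18, adjusted p = 0.0485). The call for Gsta1 held whichever library was left out, and that for Lta4h in no such fit (0.0801 to 0.173). Lpcat4 (0.0595 to 0.0688) and Ltc4s (0.0556 to 0.0658) kept theirs only without the first library labelled double knockout. Ephx1 and Ephx2, the hydrolases that open epoxides made by P450 enzymes, were not called, and Ephx2 had 440 and 328 FPKM against 418 and 247 FPKM.

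Cyp51, the lanosterol demethylase of cholesterol synthesis whose symbol has no subfamily letter, had 12.0 and 26.9 FPKM in controls and 44.3 and 52.1 FPKM in the libraries labelled double knockout. The groups were apart, and the gene was not called (1.37 ± 0.38, adjusted p = 0.0945). In all, 9 of 52 tested companion genes were called (17.3%, with 9.57% of all genes), 7 lower and 2 higher.

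**Figure D5:**
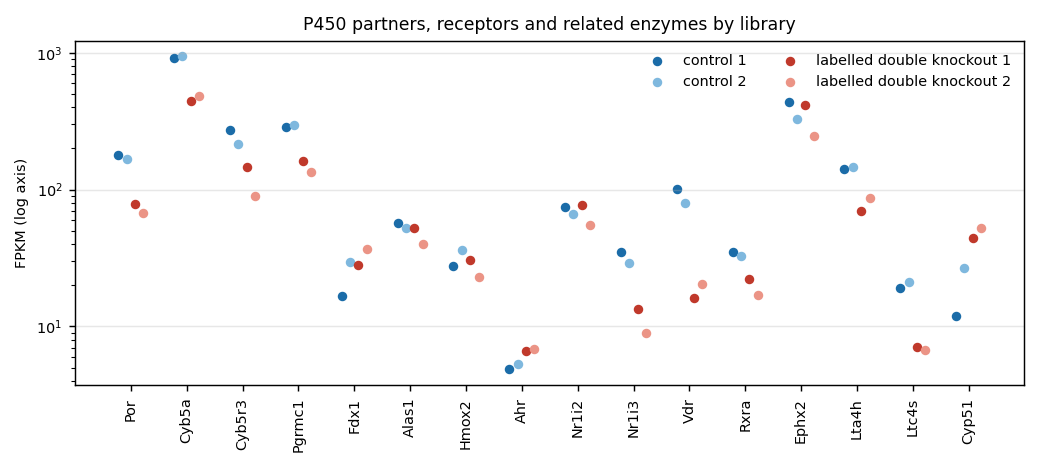
FPKM (log axis) of 16 electron partners, heme genes, receptors, eicosanoid enzymes and Cyp51 in each library, with 1 point per library. Por, Cyb5a, Pgrmc1, Vdr, Nr1i3, Ltc4s and Lta4h show both libraries labelled double knockout under both controls, while Nr1i2 and Ephx2 overlap.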

How the data were processed

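RNA was TRIzol and RNeasy purified, made into TruSeq libraries and read as single-end reads of 75 bases, per the labels' protocols. The submitters' processing notes name mm9 as the build and, without roles, Cuffdiff, Cuffnorm, Cufflinks (version 2.1.1) and TopHat2 (version 2.0.9). Whether counting used strand is not given in the sources used here. The authors deposited a table of 23735 rows without a stated unit, taken as FPKM normalized between libraries, 1 file of FPKM per library, and a comparison table with group FPKM, p-values and q-values, per the file headers.

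Rows of 1 symbol were summed (160 symbols), 1034 short RNA symbols were left out, and the test took genes whose mean over all libraries was 1 FPKM or more. Summed FPKM ran from 643708 to 689276. The test was limma (version 3.58.1, R version 4.3.3) on log2(FPKM + 1) with an intensity trend, two-sided, with Benjamini-Hochberg adjustment over all 10883 genes; it was tested on simulated data first. Folds are ratios of mean FPKM, and log2 differences of FPKM + 1 are smaller than the true change where levels are low. All values with ± after a log2 difference are SE. Nothing says how animals were housed or paired, and p-values measure the spread between 2 libraries a group.

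In low rows, values were mostly near whole multiples of 1 step per gene. Between libraries, 87.3% to 89.5% of the rows compared were within 1% of a ratio of small whole numbers. The share that would match by chance was not measured. The steps gave relative depth and approximate reads per gene. Of 94 P450 values of 1 to 5 reads, 71.3% were within 0.15 of a whole number, so these reads are estimates. Some values listed at 0 may be estimates that failed, since Hmgcs1 is at 0 in all libraries. Read sharing was measured as 75-base windows of a GENCODE transcript found in another P450 gene with at most 2 mismatches, over 101 of the 102 genes. Values of Cyp2c, Cyp2d, Cyp3a, Cyp4a and Cyp4f genes with a high share are uncertain for this reason; the share differs by gene and is 0 for some, such as Cyp3a13. Gene positions are in mm9 and promoter windows in GRCm38.p6, and no position was converted.

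Values were given for each gene at or above the filter, with full statistics for called genes, the 5 most abundant and those whose groups were apart with an absolute log2 fold change of at least 1; companion genes Por, Cyb5a (listed as Cyb5), Alas1, Hmox1, Ahr, Nr1i2, Vdr, Ephx1, Ephx2 and Cyp51 were named whatever their values. The P450 genes, the lists and the rules were chosen with earlier results of these data known. The alternatives changed the pseudocount (0.1), the filter (none, or a mean of 5 FPKM), the scaling, the source of FPKM, the variance model, a replicate block, and left out each library.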

Additional observations from a re-analysis of the deposited data

How the results depend on the processing

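Of the 15 P450 calls, 9 were made in every fit that used all libraries and in which the gene was tested, and 3 (Cyp2b10, Cyp4f16 and Cyp4f40) in all 4 fits that left out a library. The count of 5 higher P450 genes was 1 without a filter and 2 with robust empirical Bayes, and 0 to 4 with a library left out. The count of 10 lower genes was 4 to 12 with a library left out, and the median log2 fold change of -0.64 was -0.07 without a filter (81 genes tested) and -1.06 to -0.39 with a library left out. The 9 companion calls became 5 without a filter and 1 to 6 with a library left out. Over all genes, the 1041 calls became 707 without a filter (16712 tested), 166 and 157 without the first or second control, and 685 and 508 without the first or second library labelled double knockout; an arm of 1 library is assumed to vary like the other group. The FPKM of each library alone shifted the median of all genes from 0.025 to 0.169 and left 10 lower and 5 higher P450 genes.

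Signs turned for genes that were not called. With a library left out, the log2 fold change ranged from -1.07 to 0.16 for Cyp27a1, -0.96 to 0.26 for Cyp2d22, -0.56 to 0.10 for Cyp2d26, -0.21 to 0.84 for Cyp3a13, -0.36 to 0.13 for Nr1i2 and -0.62 to 0.14 for Ephx2; without the first control Cyp2d22 was at 0.02 and Cyp2d26 at 0.08. With the FPKM of each library alone Nr1i2 was at 0.02. The cause was not tested.

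With the replicate number as a block (replicate block), 4 P450 genes were called higher and 11 lower, the median log2 fold change was -0.64 and 6 companion genes were called; Cyp2c65 lost its call (adjusted p = 0.0680) and Cyp1a1 was called lower (0.0101). The numbers are only numbers in the titles, and the deviations of same-numbered libraries correlated at r = -0.00481 across genes, so no pairing was used. Depth limits genes under 1 FPKM, which rest on few reads in libraries of 9590000 to 19300000.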
